A study of Homo sapiens with 8 samples.

Results

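A set of 10 genes of the NF-κB pathway was examined in A549 cells treated with IFN-γ and the kinase inhibitor AX-0085. They were chosen by symbol, with earlier results of these data known. The set holds 4 subunits of the transcription factor (NFKB1, NFKB2, RELA and RELB), 3 inhibitors that act in feedback (NFKBIA, NFKBIE and TNFAIP3) and 3 target genes (BIRC3, TNFAIP2 and ICAM1). Each symbol was matched to 1 Ensembl identifier, and all 10 genes were found among the 60664 rows of the count table. All 10 had counts, and all 10 were among the 15066 genes that passed the filter on low counts and were tested.

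RNA was sequenced in 8 libraries of A549, a human lung adenocarcinoma cell line, as 4 groups of 2. The study asked whether AX-0085 counters what IFN-γ does in these cells, above all the induction of the immune checkpoint gene PD-L1, and its groups received neither agent, IFN-γ, AX-0085, or IFN-γ followed by AX-0085. The labels give 20 ng of IFN-γ and no volume, a first period of 24 h, and then AX-0085 at 0.5 μM for 24 h until the cells were harvested. Whether control cells received a vehicle is not given in the sources used here, all 4 groups are the same cell line, and nothing in the labels says that the 2 libraries of a group came from separate cultures, so that p-values measure only the spread between these libraries.

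NF-κB is a family of dimeric transcription factors that is held in the cytoplasm by IκB proteins. Signals from cytokine receptors activate IκB kinase, the IκB proteins are degraded and the dimers enter the nucleus, where they turn on inflammatory and survival genes together with their own inhibitors. A slower branch of the pathway depends on the kinase NIK, encoded by MAP3K14, and on the processing of the NFKB2 precursor, which then works with RELB. IFN-γ signals through its own receptor and not through IκB kinase, and many of the genes that it induces hold a short motif called GAS.

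The sequences before the transcription starts are shown because the NF-κB decamer and the GAS motif were searched in them. RefSeq promoters (GRCh38.p14) matched 8 of the 10 genes, with 12 starts in all, and RELB and NFKBIE had no entry. In the 250 bases before each start, the consensus NF-κB decamer GGGRNWYYCC was searched on both strands. Here R is A or G, W is A or T, Y is C or T, and N is any base. Only exact matches were counted, and they were found in 5 of these 8 genes and in 6.28% of all 27305 genes with a promoter. The GAS motif TTCNNNGAA, which reads the same on both strands, was found in 2 of the 8 genes and in 8.09% of all genes. The genes were chosen as members of this pathway, so these shares are a description, and a match is not a measured binding site. Near matches were not counted, such as tggaaattcc in ICAM1 and aggactttcc in NFKBIA, which differ from the decamer in the first base. In the following lines the capitals mark the exact decamer, or the GAS motif in ICAM1, and near matches stay in lower case. The TNFAIP3 sequence stops 46 bases before its RefSeq start, where an annotated exon begins. Shorter exon stretches were left in the other lines, with 29 bases in NFKB1, 27 in ICAM1 and 12 in NFKB2 inside an annotated exon of the gene.
NFKB1, chr4:102501109-102501358, plus strand: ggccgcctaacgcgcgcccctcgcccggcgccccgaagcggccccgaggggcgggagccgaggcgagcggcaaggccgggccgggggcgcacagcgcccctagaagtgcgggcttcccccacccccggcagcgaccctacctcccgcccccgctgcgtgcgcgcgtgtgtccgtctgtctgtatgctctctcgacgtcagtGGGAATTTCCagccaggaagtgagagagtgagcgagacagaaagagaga
NFKB2, chr10:102395455-102395704, plus strand: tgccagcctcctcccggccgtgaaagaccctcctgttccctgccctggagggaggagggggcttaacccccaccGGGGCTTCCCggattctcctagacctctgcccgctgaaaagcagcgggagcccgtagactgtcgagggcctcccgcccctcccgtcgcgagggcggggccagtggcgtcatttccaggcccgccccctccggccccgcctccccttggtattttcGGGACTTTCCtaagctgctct
NFKBIA, chr14:35404750-35404999, minus strand: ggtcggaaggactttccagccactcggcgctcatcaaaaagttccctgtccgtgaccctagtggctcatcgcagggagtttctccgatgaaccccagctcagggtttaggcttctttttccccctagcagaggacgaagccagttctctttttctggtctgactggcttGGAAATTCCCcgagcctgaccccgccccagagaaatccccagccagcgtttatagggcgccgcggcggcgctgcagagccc
TNFAIP3, chr6:137867009-137867213, plus strand: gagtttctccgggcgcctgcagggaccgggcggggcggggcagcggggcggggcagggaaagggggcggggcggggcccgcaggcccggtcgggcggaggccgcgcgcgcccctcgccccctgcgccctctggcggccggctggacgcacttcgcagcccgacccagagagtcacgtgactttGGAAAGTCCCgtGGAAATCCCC
BIRC3, chr11:102317234-102317483, plus strand: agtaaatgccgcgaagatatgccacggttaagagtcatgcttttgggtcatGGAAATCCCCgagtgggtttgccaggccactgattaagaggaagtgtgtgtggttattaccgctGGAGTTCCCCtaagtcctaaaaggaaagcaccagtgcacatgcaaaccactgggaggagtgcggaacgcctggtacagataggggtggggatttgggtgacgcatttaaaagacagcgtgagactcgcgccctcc
ICAM1, chr19:10270870-10271119, plus strand: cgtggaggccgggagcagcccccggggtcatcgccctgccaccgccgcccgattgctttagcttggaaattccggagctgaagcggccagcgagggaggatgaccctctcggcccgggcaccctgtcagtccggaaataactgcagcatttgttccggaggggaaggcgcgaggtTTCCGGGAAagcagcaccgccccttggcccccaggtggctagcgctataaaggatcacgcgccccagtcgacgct

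The NFKB1 decamer lay at positions -49 to -40 from the start, the NFKBIA decamer at -81 to -72, and the pair in TNFAIP3 at -67 to -58 and -55 to -46. NFKB2 had matches at 2 of its 3 starts, and the pair shown belongs to the third. All 250 bases before its second start lie in an annotated exon of NFKB2. BIRC3 had a pair farther away, at -199 to -190 and -135 to -126. The GAS match of ICAM1 lay at -75 to -67. RELA had a GAS match at -106 to -98 from its first start, and no decamer at either of its 2 starts, while TNFAIP2 had neither motif in this window. In the map of these positions no start held both motifs, so an overlap between them could not occur.

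**Figure D1:**
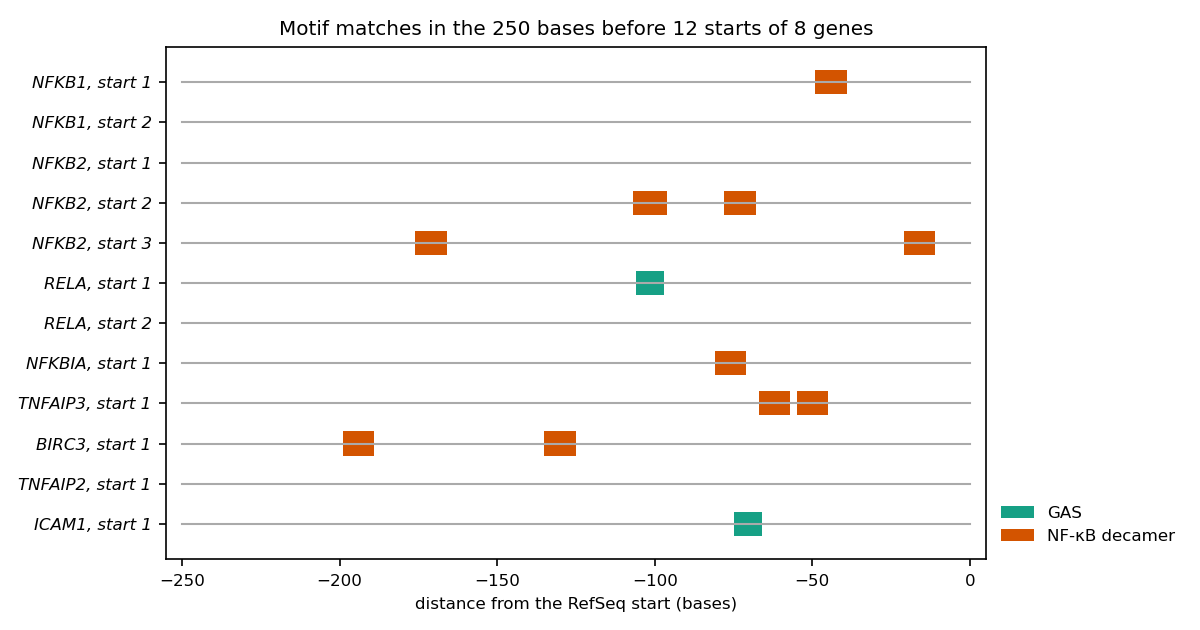
Positions of the NF-κB decamer (orange) and the GAS motif (green) in the 250 bases before 12 RefSeq starts of 8 genes, with the distance from the start in bases on the horizontal axis and 1 line per start. Exact decamer matches are seen in NFKB1, NFKB2, NFKBIA, TNFAIP3 and BIRC3, and GAS matches in RELA and ICAM1. Near matches to the decamer are not drawn.

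Total counts ranged from 20672828 to 29978251 per library, and levels are given as CPM, counts scaled to the normalized library size. The detection limit of a library was set at 3 counts, which is 0.1 to 0.145 CPM. This limit covers counting error only. Counts were scaled with TMM factors between 0.917 and 1.04. The epithelial and A549 markers (EPCAM, KRT8, KRT18, KRT19, CDH1, NQO1 and AKR1B10) had counts in every library. Their summed level lay between 14200 and 14900 CPM in untreated cells, 5780 and 6280 with IFN-γ, 9290 and 9430 with both, and 10500 and 11300 with AX-0085. The sum did not describe each marker. With AX-0085 alone EPCAM was at 8.47 CPM against 3.35 in untreated cells, while KRT18 was at 943 against 2320. With both treatments CDH1 was at 81.2 CPM against 36 in untreated cells, while KRT18 was at 972 against 2320. Among immune markers, CD3E was at 0 in all libraries and PTPRC had at most 1 count, while CD14 had 1 and 4 counts with IFN-γ and between 80 and 158 in the other groups. The 3 endothelial markers together lay between 0.0402 and 0.529 and the 4 fibroblast ones between 2.93 and 10.6 CPM, the last from COL1A1 with COL1A2 at 0. Mitochondrial genes took 1.71% to 1.82% of the counts with IFN-γ and 2.72% to 5.73% in the other groups. These values moved with the treatments, and their part in the changes described here was not tested.

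In untreated cells the 10 genes covered a wide range of levels when compared per kilobase of exon. TNFAIP2 was highest with 115 ± 7.45 CPM per kilobase (SD, n = 2), followed by NFKBIA with 17.5 ± 0.451, RELA with 15.7 ± 0.434 and NFKB2 with 10.9 ± 0.906. RELB was at 6.92 ± 1.53 and NFKBIE at 5.31 ± 0.518, which lie within their spread of each other. Lower levels were seen for NFKB1 at 2.96 ± 0.235, BIRC3 at 1.95 ± 0.0762, TNFAIP3 at 0.817 ± 0.0125 and ICAM1 at 0.0498 ± 0.0297. The place of NFKB1 depends on the length used, since its annotated exons add up to 15679 bases and its canonical transcript to 4055, and per kilobase of canonical transcript it was at 11.4, above RELB at 9.18 and NFKBIE at 5.85. When exon bases inside any other annotated gene were left out of the length, BIRC3 was at 4.4, above NFKB1 at 2.96, and ICAM1 at 0.25, still the lowest.

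All 4 subunit genes had higher levels with IFN-γ, and of the 4 the NFKB2 and RELB pair had the largest changes, upward with IFN-γ and downward with AX-0085. NFKB2 (chr10:102394110-102402524, + strand, GRCh38 as for all genes here) encodes the precursor of the alternative branch. Its level was 57.1 and 64.2 CPM in untreated cells, 232 and 213 with IFN-γ, 28.2 and 27.8 with both, and 26.3 and 27.2 with AX-0085 alone. Both IFN-γ libraries were far above the rest, and both groups with AX-0085 were below untreated cells without overlap. NFKB2 rose by 1.88 (log2 fold change) with IFN-γ (SE, the standard error, 0.07, edgeR adjusted p = 1.055e-10), and adding AX-0085 after IFN-γ changed it by -2.99 (SE 0.08, edgeR adjusted p = 4.735e-12), a 7.95-fold fall. AX-0085 alone changed it by -1.18 (SE 0.08, edgeR adjusted p = 5.402e-08). In such bulk samples, fewer cells that express a gene and less RNA per cell cannot be told apart.

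RELB (chr19:45001461-45038192, + strand), the partner of processed NFKB2, had 17.5 and 24 CPM in untreated cells, 67.8 and 56.7 with IFN-γ, 10.4 and 9.61 with both, and 7.84 and 7.86 with AX-0085. The order of the groups was that of NFKB2. RELB rose with IFN-γ by 1.59 in log2 fold change (SE 0.13, edgeR adjusted p = 1.074e-07). It changed by -2.63 when AX-0085 was added (SE 0.14, edgeR adjusted p = 2.393e-09) and by -1.39 with AX-0085 alone (SE 0.15, edgeR adjusted p = 4.3e-06).

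RELA and NFKB1, which form the classical dimer, changed by less than 2-fold with AX-0085 alone. RELA (chr11:65653599-65663090, - strand), a subunit with a transactivation domain, had 84.1 and 87.5 CPM in untreated cells, 202 and 185 with IFN-γ, 111 and 117 with both, and 90.8 and 89.9 with AX-0085. The IFN-γ libraries were highest, and cells with both treatments lay between them and the rest. RELA rose by 1.17 with IFN-γ (SE 0.06, edgeR adjusted p = 2.049e-09). Its change was -0.76 when AX-0085 was added (SE 0.06, edgeR adjusted p = 1.463e-07), which is under a 2-fold change, and 0.07 with AX-0085 alone (SE 0.06, edgeR adjusted p = 0.3308). Of the RELA exon bases, 1.89% lie in an exon of RELA-DT on the opposite strand, which had between 24 and 142 counts.

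NFKB1 (chr4:102501330-102617302, + strand) had 43.7 and 49 CPM in untreated cells, 90.3 and 92.5 with IFN-γ, 41.6 and 42.3 with both, and 38.1 and 38.5 with AX-0085. The IFN-γ libraries were highest, and no group overlapped another. The IFN-γ change of 0.98 (SE 0.07, edgeR adjusted p = 5.734e-08) corresponds to 1.97-fold and lay just under the 2-fold threshold, and with DESeq2 it was 1.03 and just over it. Adding AX-0085 after IFN-γ changed NFKB1 by -1.12 (SE 0.07, edgeR adjusted p = 2.101e-08). With AX-0085 alone the change was -0.27 (SE 0.07, edgeR adjusted p = 0.0072), under a 2-fold change.

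The 3 feedback inhibitors passed the thresholds in different comparisons. NFKBIA (chr14:35401079-35404749, - strand) encodes IκBα, the inhibitor that is resynthesized quickly after NF-κB enters the nucleus, and its group means lay closest together of the 10 genes in ratio. Its level was 58.2 and 60.4 CPM in untreated cells, 73.5 and 71.4 with IFN-γ, 76.9 and 72.1 with both, and 61.4 and 58.1 with AX-0085. The 4 libraries with IFN-γ lay above the 4 without it, whether or not AX-0085 was present. The IFN-γ change was 0.29 (SE 0.07, edgeR adjusted p = 0.001718), the change when AX-0085 was added 0.04 (SE 0.07, edgeR adjusted p = 0.5858) and that with AX-0085 alone 0.01 (SE 0.07, edgeR adjusted p = 0.8955).

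NFKBIE (chr6:44258166-44265788, - strand) encodes IκBε, a related inhibitor with slower kinetics. It had 12.8 and 14.7 CPM in untreated cells, 19 and 16.9 with IFN-γ, 6.45 and 6.74 with both, and 5.1 and 4.96 with AX-0085. All 4 libraries with AX-0085 were below all 4 without it. AX-0085 changed it by -1.44 both in IFN-γ-treated cells (SE 0.11, edgeR adjusted p = 1.27e-07) and in cells without IFN-γ (SE 0.12, edgeR adjusted p = 4.56e-07), whereas the IFN-γ change was 0.39 (SE 0.10, edgeR adjusted p = 0.004626), under a 2-fold change.

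TNFAIP3 (chr6:137867214-137883314, + strand) encodes a ubiquitin-editing enzyme that shuts off signaling upstream of IκB kinase. Its level was 5.32 and 5.21 CPM in untreated cells, 10.8 and 12.3 with IFN-γ, 4.03 and 3.82 with both, and 4.38 and 3.76 with AX-0085. The IFN-γ libraries were highest, and the 2 groups with AX-0085 overlapped. TNFAIP3 rose by 1.13 with IFN-γ (SE 0.12, edgeR adjusted p = 2.748e-06) and fell by 1.56 on the log2 scale when AX-0085 was added (SE 0.13, edgeR adjusted p = 2.445e-07). With AX-0085 alone the change was -0.37 (SE 0.14, edgeR adjusted p = 0.03776), under a 2-fold change.

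The 3 target genes, too, passed the thresholds in different comparisons. BIRC3 (chr11:102317484-102339403, + strand) encodes an inhibitor of apoptosis that is also a ubiquitin ligase of the TNF receptor complex. It had 15 and 14.2 CPM in untreated cells, 20.8 and 19.9 with IFN-γ, 5.02 and 4.99 with both, and 6.21 and 6.73 with AX-0085. The 4 AX-0085 libraries were lowest, as for NFKBIE. BIRC3 changed by -2.02 when AX-0085 was added after IFN-γ (SE 0.10, edgeR adjusted p = 2.143e-09) and by -1.17 with AX-0085 alone (SE 0.10, edgeR adjusted p = 6.938e-07), and the IFN-γ change was 0.47 (SE 0.09, edgeR adjusted p = 0.0003931), under a 2-fold change.

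TNFAIP2 (chr14:103121476-103137439, + strand), a gene induced by TNF in endothelial and epithelial cells, was the member that went down with IFN-γ. Its level was 556 and 609 CPM in untreated cells, 250 and 254 with IFN-γ, 327 and 316 with both, and 241 and 227 with AX-0085. Untreated cells were above every treated library. IFN-γ changed it by -1.21 (SE 0.06, edgeR adjusted p = 1.888e-09) and AX-0085 alone by -1.32 (SE 0.06, edgeR adjusted p = 3.871e-09), while the change when AX-0085 was added after IFN-γ was 0.35 (SE 0.06, edgeR adjusted p = 0.0002294), under a 2-fold change. The summed epithelial markers given above were highest in untreated cells, as TNFAIP2 was, but lowest with IFN-γ, where TNFAIP2 was lowest with AX-0085 alone. Single markers such as EPCAM and CDH1 were not highest in untreated cells. The part of these markers in the TNFAIP2 values was not tested.

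ICAM1 (chr19:10271093-10286615, + strand), the adhesion molecule that leukocytes bind on inflamed tissue, had the largest IFN-γ change of the 10 genes and the lowest counts. Untreated cells gave 3 and 6 counts, against 80 and 81 with IFN-γ, 5 and 7 with both, and 0 and 2 with AX-0085. The IFN-γ libraries, at 4.22 and 3.25 CPM, stood far above all others, which lay at 0.314 CPM or less. With IFN-γ, ICAM1 rose by 4.45 in log2 fold change (SE 0.41, edgeR adjusted p = 5.245e-07), a 21.9-fold rise, and changed by -4.01 when AX-0085 was added (SE 0.39, edgeR adjusted p = 1.042e-06). Over the left-out libraries the IFN-γ rise ranged from 3.94 to 5.16, the latter without untreated replicate 2. The untreated library with 3 counts lay at the detection limit, so that the fold rests on few counts. ICAM1 passed the filter on low counts only through the IFN-γ libraries, so that it was tested only because it was high there. A change with AX-0085 alone was not detectable at this depth (edgeR adjusted p = 0.1293). Of the ICAM1 exon bases, 25.4% lie in exons of antisense noncoding transcripts, ICAM4-AS1 and LIMASI, which had at most 1 and 2 counts in any library, and since the strand setting of the counting is not given in the sources used here, ICAM1 counts could differ with that setting.

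**Figure D2:**
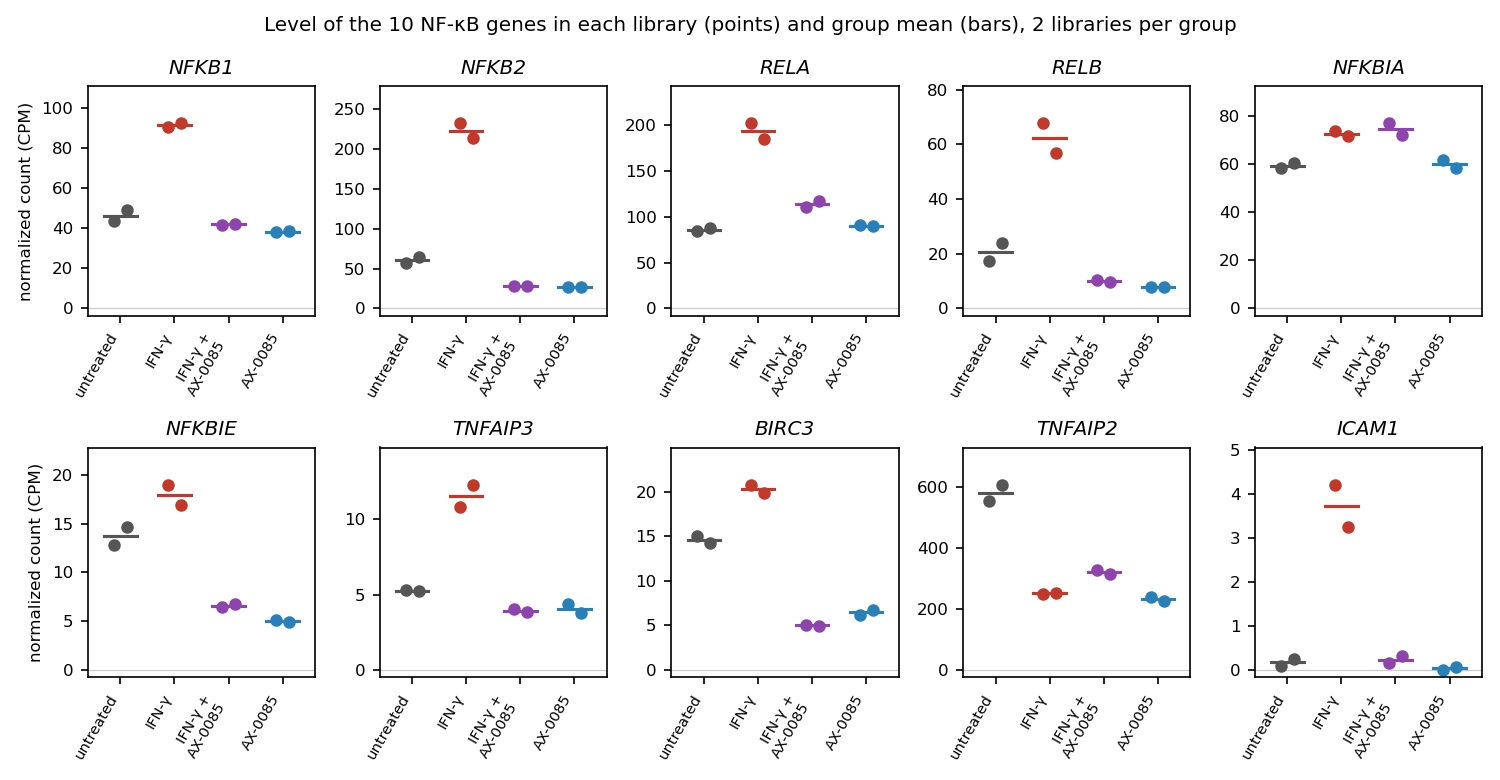
Normalized level in CPM (vertical axis, a separate linear scale for each gene) of the 10 genes in the 8 libraries, by treatment group, with points for libraries and bars for the mean of 2. NFKB2, RELB, RELA, NFKB1, TNFAIP3 and ICAM1 peak with IFN-γ, NFKBIE and BIRC3 are low in both groups with AX-0085, NFKBIA lies between 58.1 and 76.9 CPM throughout, and TNFAIP2 is highest in untreated cells.

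Counted against all genes, IFN-γ raised 5 of the 10 genes past both thresholds (adjusted p under 0.05 and a change over 2-fold), namely NFKB2, RELA, RELB, TNFAIP3 and ICAM1, where 10.3% of all tested genes were raised. It lowered 1, TNFAIP2, where 17.2% of all genes were lowered. The median log2 fold change of the 10 genes was 1.06, and that of all genes -0.06. When AX-0085 was added after IFN-γ, 7 of 10 were lowered, against 8.28% of all genes, with a median of -1.5 against 0.03, and the 3 others were RELA, NFKBIA and TNFAIP2. In this comparison edgeR called 0 of the 10 higher, against 16.5% of all genes, with 1 at an unadjusted p under 0.05 and 0 called by DESeq2. AX-0085 alone lowered 5 of 10, against 5.62% of all genes, with NFKB2, RELB, NFKBIE, BIRC3 and TNFAIP2 lowered. Here edgeR called 0 higher, with 0 at an unadjusted p under 0.05 and 0 by DESeq2, against 6.41% of all genes. The median with AX-0085 alone was -1.18, and -0.87 when ICAM1, whose AX-0085 libraries are at the limit of 3 counts or under it, was placed at that limit. By the adjusted p alone, without the fold limit, IFN-γ raised 9 of the 10 and lowered 1, against 32.1% and 36% of all genes. In the same way 1 was higher and 8 lower when AX-0085 was added, against 33.7% and 32.8%, and AX-0085 alone lowered 7, against 26.6%, and raised 0, against 26.7%. The first and the third comparison share the untreated libraries, and the first and second share the IFN-γ libraries, so that their values are given side by side and not as independent results. Because the genes were chosen with earlier results of these data known, the shares over all genes are a description and not a test. ICAM1, counted among the 5 raised and the 7 lowered, passed the filter on low counts only through its IFN-γ libraries. Without ICAM1 the median of the other 9 genes was 0.98 with IFN-γ and -1.44 when AX-0085 was added.

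**Figure D3:**
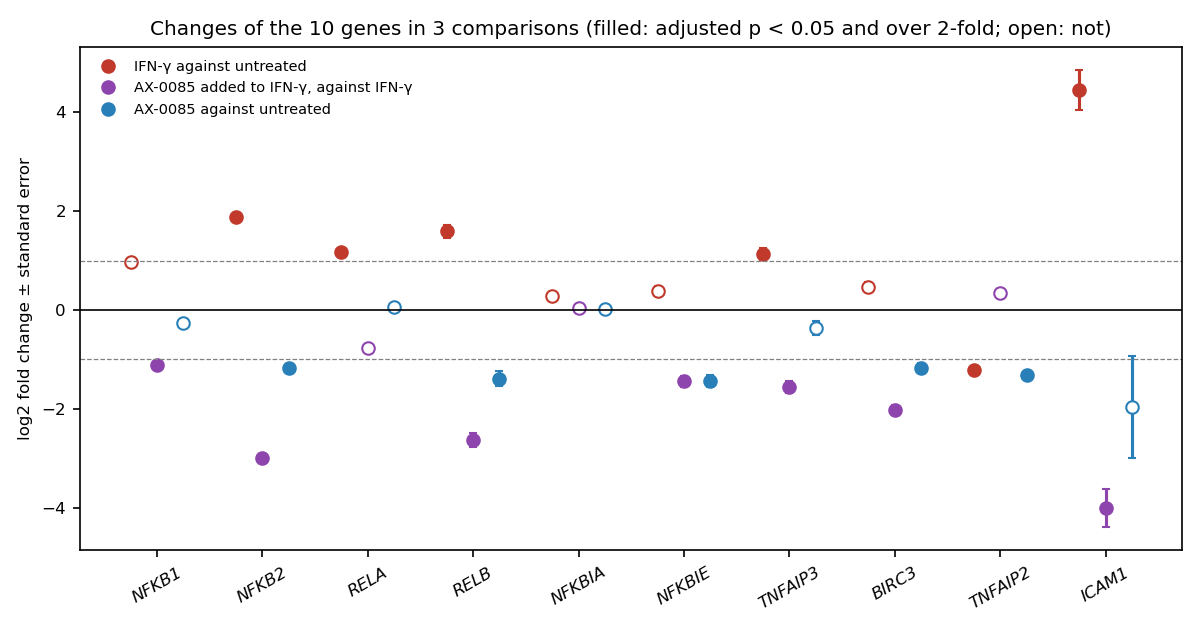
Log2 fold change (vertical axis, bars ± SE from the edgeR fit over 8 libraries) of the 10 genes with IFN-γ, with AX-0085 added to IFN-γ and with AX-0085 alone, with filled points for adjusted p under 0.05 and over 2-fold and dashed lines at 2-fold. NFKB2 reads 1.88, -2.99 and -1.18, while the 3 NFKBIA points lie between 0.01 and 0.29.

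Whether AX-0085 left any IFN-γ effect was read from cells with both treatments. Against AX-0085 alone, edgeR called 0 of the 10 genes in either direction, where 1.79% of all genes were called higher and 1.73% lower. By the adjusted p alone 4 were higher and 1 lower, against 17.3% and 17.4% of all genes. At an unadjusted p under 0.05, 6 were higher and 1 lower, and DESeq2 called 0 in either direction. The changes of the 9 genes other than ICAM1 lay between -0.37 for BIRC3 and 0.46 for TNFAIP2. Of the subunits, NFKB2 differed by 0.07 (SE 0.08, edgeR adjusted p = 0.5579), RELB by 0.36 (SE 0.16, edgeR adjusted p = 0.09963) and RELA by 0.34 (SE 0.06, edgeR adjusted p = 0.001049). ICAM1, with 5 and 7 counts against 0 and 2, was not detectably different (edgeR adjusted p = 0.07293).

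Against untreated cells, cells with both treatments had lower levels of 4 genes, NFKB2, RELB, NFKBIE and BIRC3, where 7.23% of all genes were lower. edgeR called 0 higher, where 7.51% of all genes were, with 2 at an unadjusted p under 0.05 and 0 by DESeq2. BIRC3 changed by -1.55 (SE 0.10, edgeR adjusted p = 5.415e-08) and NFKB2 by -1.11 (SE 0.08, edgeR adjusted p = 6.151e-08). RELB at -1.04 and NFKBIE at -1.05 were close to the 2-fold threshold. RELB was at -0.80 without untreated replicate 2, -0.99 without IFN-γ replicate 2 and -0.98 without replicate 2 of both treatments, and NFKBIE at -0.96 without untreated replicate 2 and -0.98 without replicate 1 of both treatments, all under 2-fold. The count of genes lowered was 2 without untreated replicate 2. By the adjusted p alone 2 were higher and 6 lower, against 28.1% and 28.8% of all genes. RELA at 0.41 and NFKBIA at 0.33 had small positive differences under 2-fold (edgeR adjusted p = 7.83e-05 and 0.0008013).

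An interaction term compared what AX-0085 did after IFN-γ with what it did without IFN-γ. Past both thresholds the term was negative for 3 genes, NFKB2, RELB and TNFAIP3, where it was negative for 6.46% of all genes, and positive for 1, TNFAIP2, where it was positive for 12.1%. The term was -1.81 for NFKB2 (SE 0.11, edgeR adjusted p = 3.323e-08), -1.23 for RELB (SE 0.20, edgeR adjusted p = 0.0002284) and -1.18 for TNFAIP3 (SE 0.19, edgeR adjusted p = 0.0002221). For TNFAIP2 it was 1.67 (SE 0.09, edgeR adjusted p = 1.328e-08). By the adjusted p alone the term was negative for 6 and positive for 1, against 23.6% and 26.7% of all genes. NFKB1, RELA and BIRC3 had terms of -0.85, -0.83 and -0.85, each with an adjusted p under 0.05 and under 2-fold. The terms of NFKBIA and NFKBIE were 0.03 (SE 0.09, edgeR adjusted p = 0.8058) and 0.00 (SE 0.13, edgeR adjusted p = 0.9966). The ICAM1 term of -2.05 (SE 1.58, edgeR adjusted p = 0.3026) rested on the few counts with AX-0085 alone, and its sign turned to 1.09 without AX-0085 replicate 2.

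The profiles over the 8 libraries were compared by the root mean square difference of log2 CPM after centring each gene. NFKB2 and RELB were nearest to each other, at 0.17, and NFKB1 and TNFAIP3 at 0.18. NFKBIE and BIRC3 were nearest to each other at 0.29, while TNFAIP2 lay 0.59 from its nearest member, NFKBIA, and ICAM1 2.01 from its nearest, NFKB2. Outside the NF-κB genes listed here, the tested protein-coding genes nearest to ICAM1 were KRT16 at 1.17, TMPRSS3 at 1.24 and TNFRSF1B at 1.25. All ICAM1 distances rest largely on the prior count of the log scale, which sets its AX-0085 library with 0 counts to -7.672 log2 CPM against -3.642 in the other AX-0085 library with 2 counts. The points share libraries and depth, and the values are a description.

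Other genes of the pathway were examined in the same fits, from a list of 66 genes ordered by role. Of these, 65 were found by identifier, all but SOD2, and 58 were tested. RNF31, CSF2, IL1B, TNF, LTB, VCAM1 and SELE had too few counts, with TNF and SELE at 0 in all 8 libraries. RNF31 had 1 count over the 8 libraries, and 53.28% of its exon bases lie in exons of other genes on the same strand. The part of this overlap in its low count was not tested. IFN-γ raised 19 of the 58, against 10.3% of all tested genes, and lowered 8, against 17.2%, with a median of 0.50. When AX-0085 was added, 24 were lowered, against 8.28%, and 3 raised, against 16.5%, with a median of -0.58. AX-0085 alone lowered 10, against 5.62%, and raised 1, against 6.41%, with a median of -0.27. Of the 19 cytokines and other target genes in the list, IFN-γ raised 11, against 10.3% of all tested genes, and lowered 4, against 17.2%. Among these 19, 16 were lowered when AX-0085 was added, against 8.28%, and 7 with AX-0085 alone, against 5.62%. IL6 and CCL20, counted among the 11 and the 16, passed the filter on low counts only through the IFN-γ libraries.

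IL6, an inflammatory cytokine, had 0 counts in untreated cells, 48 and 66 with IFN-γ, 0 in both libraries with both treatments, and 1 and 0 with AX-0085. Set against 3 counts per library, IL6 with IFN-γ was at least 23.4-fold higher than without treatment, and at least 22.5-fold higher than with both. CXCL8, a neutrophil chemokine, had 49 and 41 counts in untreated cells, 189 and 242 with IFN-γ, 4 and 2 with both, and 4 and 9 with AX-0085, and it changed by -6.40 when AX-0085 was added after IFN-γ (SE 0.28, edgeR adjusted p = 4.453e-10). With AX-0085 alone the largest falls were those of CCL2, a monocyte chemokine, by 3.02 on the log2 scale (SE 0.20, edgeR adjusted p = 7.325e-08), and of BCL2A1, an anti-apoptotic BCL2 relative, by 2.73 (SE 0.18, edgeR adjusted p = 7.262e-08). CD83, a surface protein of activated cells, fell with IFN-γ by 2.14 (SE 0.26, edgeR adjusted p = 7.155e-06).

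Among the receptors with their adaptors and bound kinases, 3 of 15 were raised by IFN-γ, against 10.3% of all tested genes, and 1 lowered, against 17.2%. TLR3, a sensor of double-stranded RNA, rose most. Its counts were 24 and 18 in untreated cells, 251 and 352 with IFN-γ, 119 and 123 with both, and 80 and 98 with AX-0085, and its level rose by 4.15 with IFN-γ (SE 0.21, edgeR adjusted p = 1.378e-09) and by 2.16 with AX-0085 alone (SE 0.25, edgeR adjusted p = 1.068e-05). IL1R1, the receptor of interleukin-1, rose by 1.17 when AX-0085 was added after IFN-γ (SE 0.17, edgeR adjusted p = 5.087e-05), and by 0.90, under 2-fold, without IFN-γ replicate 1.

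A further role held 10 genes, the IκB kinases and the kinases above them with their partner proteins (IKBKG and TAB1, TAB2 and TAB3, which are not kinases). IFN-γ raised 1 of these 10, against 10.3% of all tested genes, and lowered 1, against 17.2%, and AX-0085 alone lowered 1, against 5.62%. The gene raised by IFN-γ was the partner protein TAB2, named here after its values were seen, at 1.15 (edgeR adjusted p = 1.086e-09). IKBKE, an IκB kinase relative that also activates interferon regulatory factors, was lowered by IFN-γ, by 2.15 on the log2 scale (SE 0.15, edgeR adjusted p = 2.896e-08), and it rose by 1.5 when AX-0085 was added (SE 0.16, edgeR adjusted p = 2.047e-06). The gene of this role lowered by AX-0085 was MAP3K14, named here after its values were seen, with 1814 and 1598 counts in untreated cells, 1562 and 2190 with IFN-γ, 591 and 378 with both, and 339 and 389 with AX-0085. Its level changed by -2.15 with AX-0085 alone (SE 0.09, edgeR adjusted p = 1.487e-09) and by -2.24 when it followed IFN-γ (SE 0.09, edgeR adjusted p = 1.56e-10). Of the 9 tested ubiquitin regulators, 3 were raised by IFN-γ, against 10.3% of all tested genes, and 4 were lowered when AX-0085 was added, against 8.28%. REL, the remaining subunit gene, changed by -0.34 with IFN-γ, 0.34 when AX-0085 was added and 0.27 with AX-0085 alone, with edgeR adjusted p of 0.06388, 0.07027 and 0.1244.

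**Figure D4:**
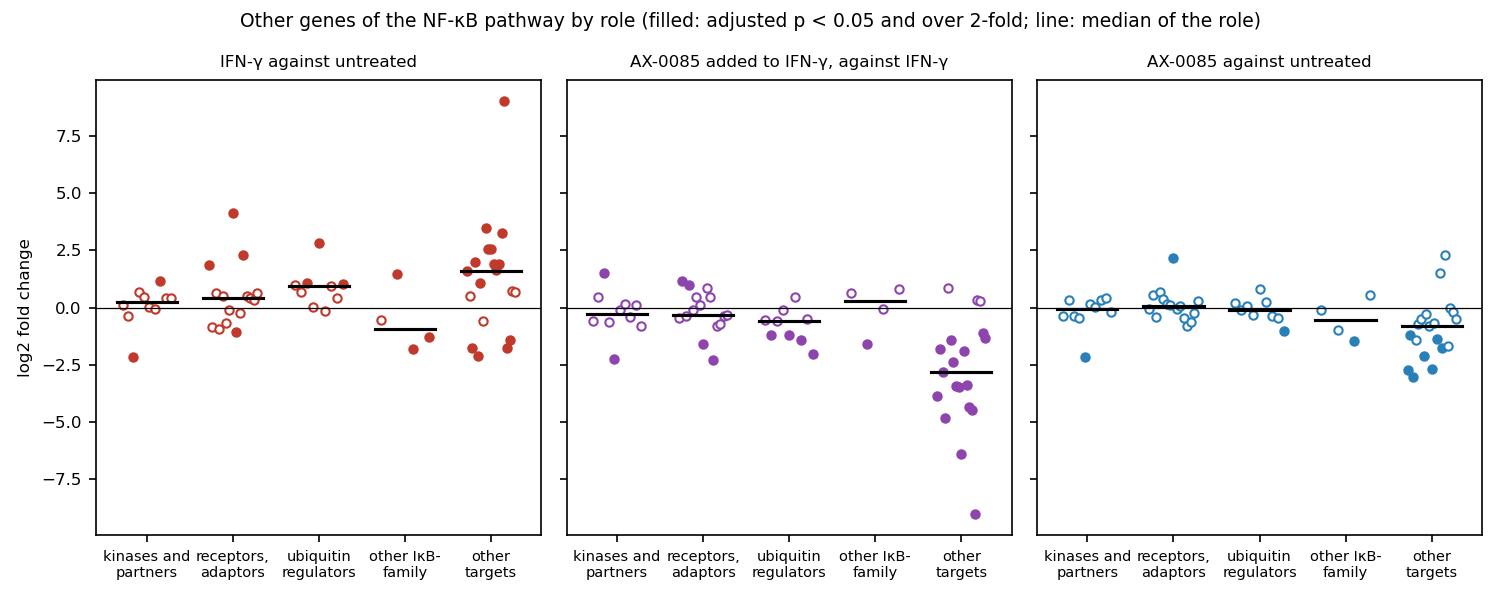
Log2 fold change (vertical axis) of 57 tested genes of the wider NF-κB list by role, in 3 comparisons, with 1 point per gene, filled for adjusted p under 0.05 and over 2-fold, and a line at the median of each role. REL is not drawn, and the points of IL6, at 9.05, -9.05 and 2.31, are fitted against groups with 0 counts and are not bounds. The median of the other target genes is 1.59 with IFN-γ, -2.81 when AX-0085 was added and -0.83 with AX-0085 alone.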

How the data were processed

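Gene counts of 8 A549 libraries (TruSeq stranded mRNA kit), as deposited by the authors, were used. Per the labels' processing notes, reads were trimmed with Trim Galore 0.6.7, aligned with STAR 2.7.9a to GRCh38 and counted with featureCounts. The annotation release and strand setting are not given in the sources used here. Of the 60664 identifiers, 60463 were found in GENCODE 44, which gave symbols, coordinates and exon lengths.

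Counts were filtered with filterByExpr, scaled by TMM and fitted over all 8 libraries with edgeR 4.0.16 (quasi-likelihood F test, R 4.3.3), with the 4 groups as the design and no covariate. P-values were adjusted by Benjamini-Hochberg over all 15066 tested genes, separately for each comparison. A gene was called at an adjusted p under 0.05 and a change over 2-fold. The standard error is the size of the log2 fold change divided by the square root of F. Log2 CPM used a prior count of 0.125. The scripts were tested on simulated data. Samples were grouped by the treatment in the labels. Same-numbered libraries did not deviate together (correlations from -0.0738 to 0.0444), so that the numbers were not taken as pairs.

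Named were all 10 genes and, from a wider list, up to 2 called genes with the largest change in each direction in each of 3 comparisons and the interaction, and the 3 protein-coding genes nearest to the member that IFN-γ changed most. The genes and lists were chosen with earlier results of these data known. Alternatives were DESeq2 1.42.0, other scaling, filters and calls, fits of only the groups compared, a replicate block, leaving out each library, and other lengths. The sum over the immune markers is not reported here.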

Additional observations from a re-analysis of the deposited data

Results flagged for a closer look

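A different effect of AX-0085 with and without IFN-γ (the interaction, edgeR adjusted p under 0.05) was found for 7 of the 10 genes, 6 negative and 1 positive, where 23.6% of all tested genes had a negative and 26.7% a positive term by the same criterion. It was negative for NFKB2 at -1.81, RELB at -1.23, TNFAIP3 at -1.18, NFKB1 at -0.85, BIRC3 at -0.85 and RELA at -0.83, so that the change with AX-0085 was more negative after IFN-γ than without it. For TNFAIP2 the term was 1.67, since AX-0085 lowered it in cells without IFN-γ and the level with both treatments was above that with IFN-γ.

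In the wider list, the term was 1.86 for IKBKE (SE 0.20, edgeR adjusted p = 5.585e-06) and 1.58 for CD83 (SE 0.37, edgeR adjusted p = 0.003081), which fell with IFN-γ. For IL6 it was -11.36 (SE 3.17, edgeR adjusted p = 0.01165), a fitted value that depends on the prior count because untreated cells and cells with both treatments had 0 counts, and it was -9.06 and no longer called without AX-0085 replicate 1. IL1A, an alarm cytokine, had a term of -5.87 (SE 1.41, edgeR adjusted p = 0.003776) and had 13 and 8 counts with IFN-γ against 1 and 0 with both, and 7 and 12 with AX-0085 against 7 and 0 without treatment. Over the left-out libraries the IL1A term ranged from -10.56, without untreated replicate 1, to -5.03, without untreated replicate 2. Groups of 2 libraries were not tested for single outlying values.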

How the results depend on the processing

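The 7 genes lowered when AX-0085 was added after IFN-γ and the 5 lowered by AX-0085 alone stayed within 1.5 times of these counts under all alternatives run. With the adjusted p alone, without a fold limit, IFN-γ raised 9 of the 10 genes, addition of AX-0085 raised 1, cells with both treatments had 4 higher and 1 lower than with AX-0085 alone and 2 higher than untreated cells, and the interaction was negative for 6. Of the 58 tested genes of the wider list, 36 were then higher and 13 lower with IFN-γ, against 32.1% and 36% of all tested genes. Upon addition of AX-0085 the counts were 11 and 37, against 33.7% and 32.8%. With AX-0085 alone they were 12 and 27, against 26.7% and 26.6%. For both against AX-0085 they were 14 and 10, against 17.3% and 17.4%. For both against untreated cells they were 11 and 26, against 28.1% and 28.8%. For the interaction they were 7 and 27, against 26.7% and 23.6%. Against a 1.5-fold change (glmTreat), the interaction was negative for 5 of the 10 genes, and in the wider list 2 were higher with AX-0085 alone and 3 with both against AX-0085. Without a filter, both against AX-0085 had 1 of the 10 higher, ICAM1, and 2 of the wider list. With at least 10 counts in every library, AX-0085 alone lowered 6 of the wider list. That filter left TNIP3, CXCL8, CXCL1 and CCL2 untested, which AX-0085 alone lowered in the main fit. ICAM1, with 0 counts in AX-0085 replicate 1, was untested under it too. Over the alternatives that kept both libraries of each group, IFN-γ raised 4 to 9 of the 10 genes, and addition of AX-0085 lowered 6 to 8. When each library was left out, both against untreated cells lowered 2 to 4 of the 10, and in the wider list 1 to 2 were higher with AX-0085 alone, 1 to 2 with both against AX-0085, and 3 to 5 in the interaction.

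Directions turned only for small or poorly counted changes. NFKBIA with AX-0085 alone was at -0.00092 without a filter, and its interaction at -0.0028 with DESeq2 and -0.003 with RLE factors, while that of NFKBIE was at -0.03 with both. Over the left-out libraries NFKBIA ranged from -0.01 to 0.09 upon addition of AX-0085, -0.03 to 0.05 with AX-0085 alone and -0.03 to 0.07 in the interaction, NFKBIE from -0.11 to 0.08 in the interaction, TNFAIP3 from -0.15 to 0.07 for both against AX-0085, and ICAM1 from -0.08 to 1.14 for both against untreated cells and from -2.93 to 1.09 in the interaction. The NFKB1 change with IFN-γ was called with DESeq2 (1.03), with RLE factors (1.03) and in the fit of untreated and IFN-γ libraries alone (1.02). Over the left-out libraries this change ranged from 0.95 to 1.07, on both sides of the 2-fold limit. The causes were not tested.

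Scaling by library size alone moved the median of all genes from -0.06 to -0.17 with IFN-γ, from 0.03 to 0.16 upon addition of AX-0085 and from 0.05 to 0.17 in the interaction. With a replicate block the counts for the 10 genes were 5 higher and 1 lower with IFN-γ, 7 lower upon addition of AX-0085, 5 lower with AX-0085 alone, 4 lower for both against untreated cells, and 1 higher and 3 lower in the interaction, and the wider list had 9 lower with AX-0085 alone and 11 lower for both against untreated cells. The block changed no other count. With 2 libraries a group and under 10 ICAM1 counts outside IFN-γ, small differences were not detectable for that gene.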
